A study of Mus musculus with 8 samples.

Results

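Described here are 36 genes that encode lysosomal hydrolases and membrane proteins, cathepsins and proton pump subunits left aside, in mouse myeloid cells before and after deletion of a Meis1 transgene. They were chosen by symbol, and a gene was measured where at least 1 probe set carried exactly that symbol in the platform annotation. That held for 34 of the 36 genes, out of 11836 genes tested, while Neu1 and Idua were not analysed here. Bone marrow cells of C57BL/6 mice with a Cre-ERT2 knock-in at Rosa26, a recombinase that tamoxifen activates, had been immortalized with retroviral Hoxa9 and retroviral floxed Meis1. The Meis1 deleted group (4 samples, titled by Hoxa9 alone) received 2 µM 4-hydroxytamoxifen in the medium, which removes the Meis1 cDNA and leaves Hoxa9. The Hoxa9 and Meis1 group (4 samples) kept both transgenes and is described as the original cells. All 8 samples share the knock-in, the Hoxa9 virus and culture with 5 ng/ml interleukin-3 in 10% serum, and RNA was read on 1-colour Affymetrix arrays.

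Several features limit the comparison. Only the Meis1 deleted group was given the drug, so loss of Meis1, Cre activity and the drug cannot be told apart. Neither separate cultures nor separate mice are named for the 4 samples of a group, and p-values therefore reflect only how much these arrays vary, possibly for technical reasons. The kept Meis1 probe set read 5.02 ± 0.07 in Meis1 deleted cells and 5.00 ± 0.05 in Hoxa9 and Meis1 cells (SD, n = 4 each). It is not known here whether it lies within the viral cDNA, so it checks neither the deletion nor the labels. All 8 markers of the labelled myeloid cell type were above the filter on low values. In these bulk samples, fewer cells of a type and less RNA per cell cannot be told apart.

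The lysosome is the acidic compartment in which cells break down material taken up from outside and worn parts of their own. Its soluble hydrolases cut glycosaminoglycans, glycoproteins, glycogen, lipids, phosphates and proteins, and most reach it through mannose 6-phosphate tags. Membrane glycoproteins line its wall, and transporters and channels let cholesterol, ions and breakdown products out. Macrophages, which digest what they engulf, are rich in lysosomes. Many lysosomal genes are known to carry an E-box-containing element bound by Tfeb, Tfe3 and Mitf, factors of 1 family that raise such genes.

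Of the 34 measured genes, 24 rose in Meis1 deleted cells, 1 fell and 9 did not pass the test (limma, Benjamini-Hochberg adjusted over all genes, threshold 0.05). That is 70.6% higher, where 18.1% of all genes tested were higher and 17.5% were lower. The median log2 fold change of the 34 genes, Meis1 deleted minus Hoxa9 and Meis1, was 0.30, and that of all genes was -0.0044. Fold changes ran from -0.19 for Smpd1 to 1.26 for Lipa, so most changes were small. Of the 24 rises 9 reached 0.5 on the log2 scale, and 15 stayed under it. Over all genes tested, 734 of the 2140 rises reached 0.5, which is 6.2% of all genes. In 24 genes every Meis1 deleted array lay above every Hoxa9 and Meis1 array, as in 19.7% of all genes. All 34 genes passed the filter on low values, so none was lost from these counts. Measured against the mean of the Hoxa9 and Meis1 arrays, the genes' median in the single arrays was 0.376, 0.292, 0.270 and 0.334 in Meis1 deleted cells. In the 4 Hoxa9 and Meis1 arrays it lay between -0.026 and 0.016. By the probe set that stood for each gene, Lipa and Npc1 were the 2 genes that changed by at least 1 on the log2 scale. Both handle cholesterol from endocytosed lipoproteins. Further probe sets of Acp2 and Gla rose by 1.15 ± 0.05 and 1.08 ± 0.10.

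**Figure D1:**
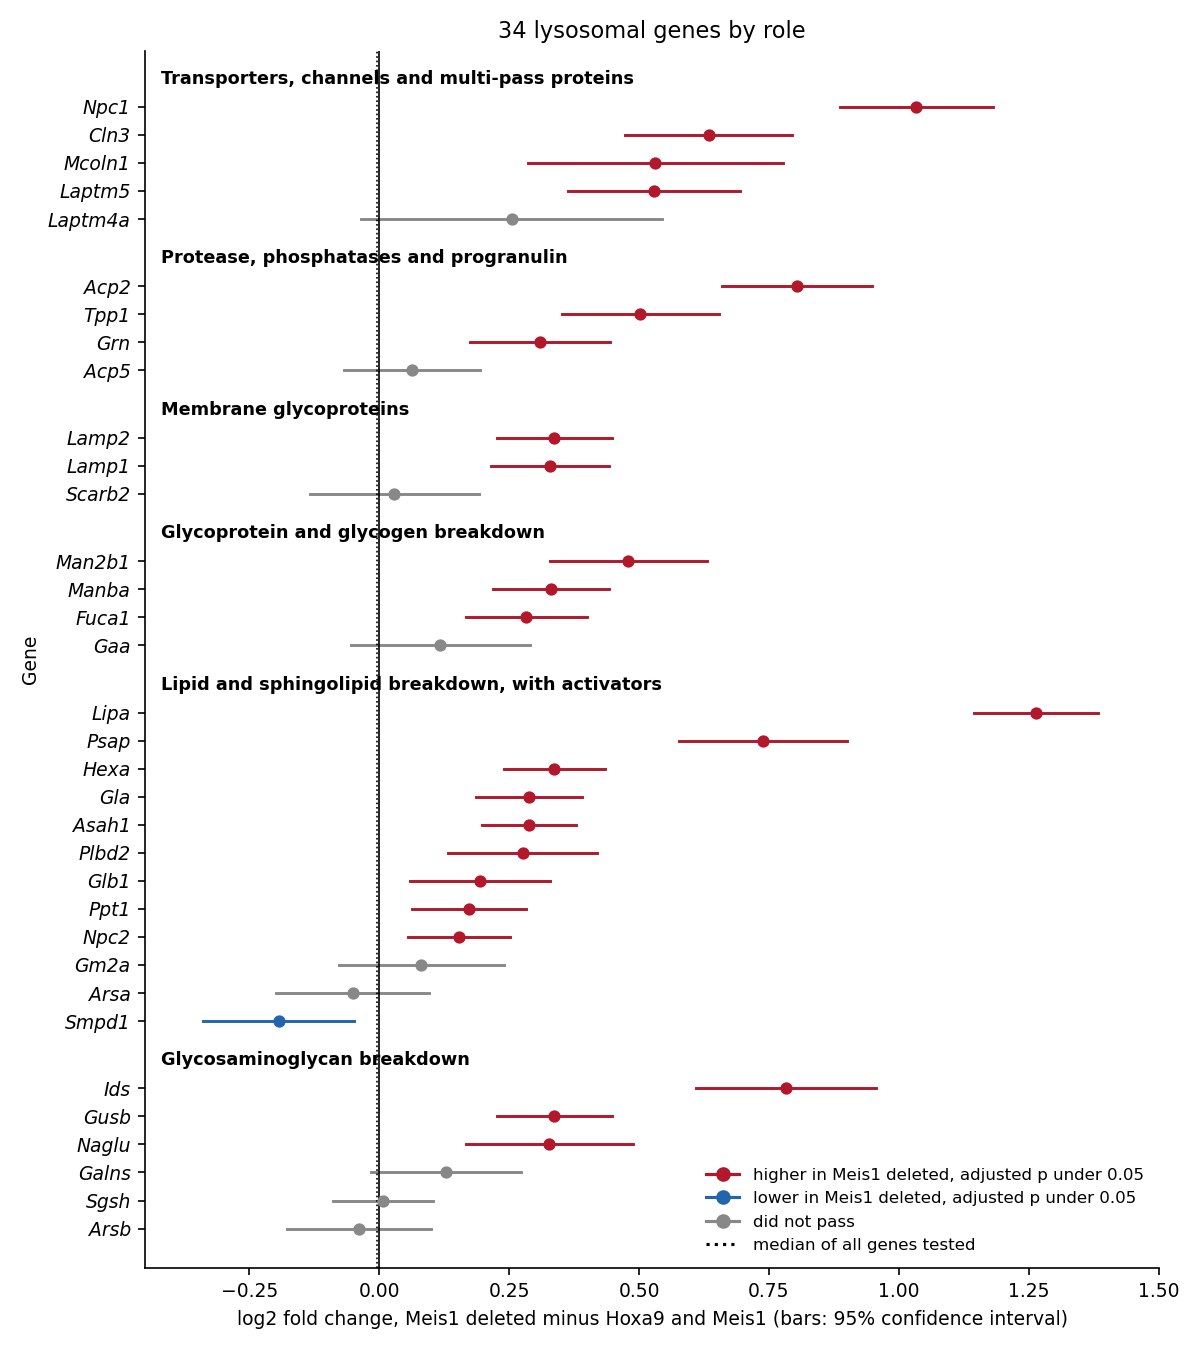
Log2 fold change (Meis1 deleted minus Hoxa9 and Meis1, x axis) of each of the 34 genes, grouped by role, with 95% confidence intervals from limma; colour gives the call and the dotted line the median of all genes. Most points lie right of 0, with Lipa farthest right at 1.26, and Smpd1 is the only gene called lower.

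Promoter letters are shown because many lysosomal genes are known to share an E-box and because most of these genes moved in one direction. RefSeq promoter windows (build GRCm38.p6, 250 bases before to 50 bases after the start) were at hand for 32 of the 36 genes. They were searched on both strands for the E-box CACGTG, for TCACGTG and for the palindrome TCACGTGA, each of which contains the one before it. CACGTG was present in 9 of the 32 genes (28.12%), against 8.09% of all 27025 genes with a window. All 9 held the longer TCACGTG, present in 4.29% of all genes. The palindrome was in 3 of the 32 (9.38%), against 1.12% of all genes. Those 3 were Cln3, Mcoln1 and Gla, which all rose. The stretches below run 5′ to 3′ on the gene's strand, 40 bases each, with the palindrome in capitals.
Cln3, chr7:126583335-126583374, minus strand, at -121 from the start: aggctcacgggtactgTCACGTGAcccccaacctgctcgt
Mcoln1, chr8:3500457-3500496, plus strand, at -45 from the start: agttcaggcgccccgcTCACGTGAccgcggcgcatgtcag
Gla, chrX:134601210-134601249, minus strand, at -227 from the start: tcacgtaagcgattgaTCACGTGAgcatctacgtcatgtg
Gla, chrX:134601177-134601216, minus strand, at -194 from the start: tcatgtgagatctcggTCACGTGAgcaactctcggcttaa

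The other 6 genes with TCACGTG were Lamp1, Naglu and Glb1, which rose, and Gaa, Sgsh and Arsa, which did not pass. Lamp1 had 4 copies, at -61, -45, -28 and -15 from its start, more than any other of the 32 genes, so its whole window is given, with the copies in capitals.
Lamp1, chr8:13158911-13159210, plus strand: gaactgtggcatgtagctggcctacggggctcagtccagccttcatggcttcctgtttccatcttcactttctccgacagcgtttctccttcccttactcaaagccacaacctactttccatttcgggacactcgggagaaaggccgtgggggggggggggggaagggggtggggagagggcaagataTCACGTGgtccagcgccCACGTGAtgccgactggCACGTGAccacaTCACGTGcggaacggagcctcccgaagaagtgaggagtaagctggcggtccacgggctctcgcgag
The single copies of the remaining genes, in capitals, are set side by side to show genes of both outcomes.
Naglu, chr11:101070004-101070043, plus strand, rose: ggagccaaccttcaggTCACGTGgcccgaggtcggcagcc
Glb1, chr9:114401013-114401052, plus strand, rose: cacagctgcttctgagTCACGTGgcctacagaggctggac
Gaa, chr11:119267806-119267845, plus strand, not passed: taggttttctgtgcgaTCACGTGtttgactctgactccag
Sgsh, chr11:119355517-119355556, minus strand, not passed: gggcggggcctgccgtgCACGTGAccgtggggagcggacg
Arsa, chr15:89477418-89477457, minus strand, not passed: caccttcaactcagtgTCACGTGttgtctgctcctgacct
Among the 30 measured genes with a window, 6 of the 9 with TCACGTG rose and 0 fell, with a median log2 fold change of 0.29. Of the 21 without it, 15 rose and 1 fell, with a median of 0.33. Lipa, Acp2, Ids and Psap, which were among the 5 genes with the highest fold changes, had no match in these windows. Npc1, the other of those 5, had no window and was not searched, and neither were Asah1, Galns and Plbd2. A match is a description of letters, and no binding was measured.

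**Figure D2:**
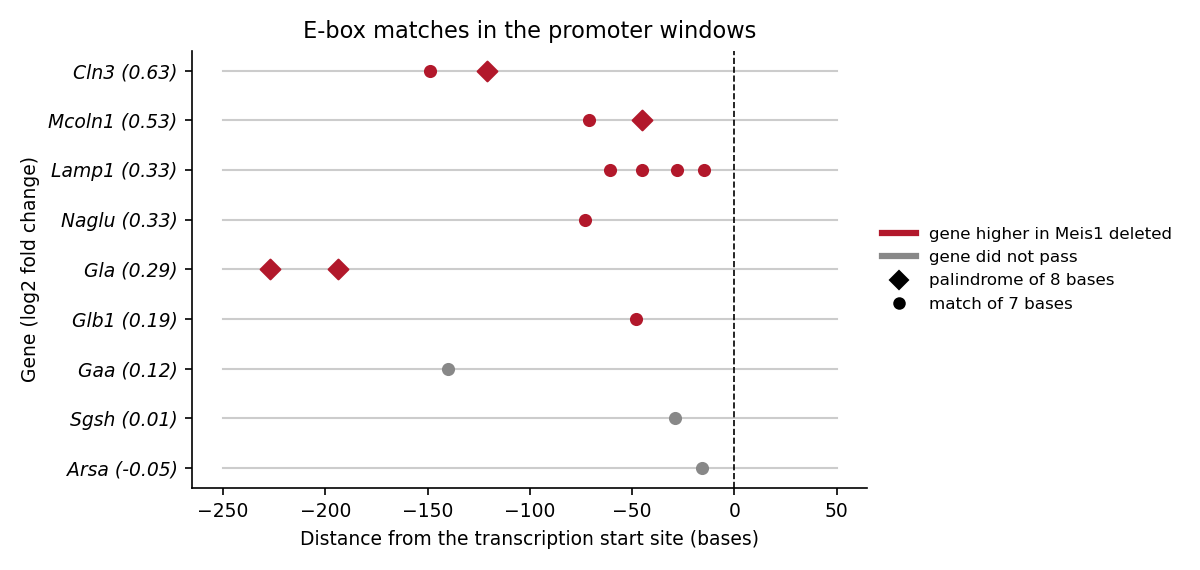
Distance in bases from each CACGTG match to the gene's start (x axis) in the 9 genes that have one, ordered by log2 fold change; colour gives the call in the expression test and marker shape the longer motif. The matches of Lamp1 crowd between -61 and -15, and a match of Gla at -227 lies farthest from the start.

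The transporters, channels and multi-pass proteins of the lysosomal membrane held several of the higher fold changes. Of 5 genes 4 rose and 0 fell, with a median log2 fold change of 0.53. Npc1, which exports cholesterol from the lysosome, had log2 levels of 8.59, 8.39, 8.43 and 8.46 in Meis1 deleted cells, against 7.44, 7.30, 7.45 and 7.54 in Hoxa9 and Meis1 cells. The groups stood well apart, a rise of 1.03 ± 0.07 on the log2 scale, or 2.05-fold (SE, limma adjusted p = 2.32e-06). Cln3, a membrane protein whose loss causes a juvenile storage disease of neurons in humans, had levels of 6.85, 6.96, 7.04 and 7.10 in Meis1 deleted cells, against 6.29, 6.32, 6.50 and 6.29 in Hoxa9 and Meis1 cells. It rose by 0.63 ± 0.07 (adjusted p = 1.15e-04) with no overlap, or by 0.39 with an offset of 64 added on the linear scale, and its palindrome is among those printed above. Its other kept probe set did not pass, at 0.01 ± 0.06.

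Mcoln1, the channel that releases calcium from the lysosome, read 8.06, 7.74, 7.71 and 7.91 in Meis1 deleted cells and 7.11, 7.24, 7.40 and 7.55 in Hoxa9 and Meis1 cells. This was a rise of 0.53 ± 0.11 (adjusted p = 0.00435), with more spread within groups than in most of these genes, and its other 2 probe sets rose by 0.46 ± 0.10 and 0.47 ± 0.16. Laptm5, a protein of blood cells that sends receptors to the lysosome, read 10.76, 10.48, 10.49 and 10.44 in Meis1 deleted cells against 10.08, 10.05, 9.97 and 9.97 in Hoxa9 and Meis1 cells. It rose by 0.53 ± 0.07 (adjusted p = 4.36e-04). A further Laptm5 probe set read 7.95, 9.39, 9.60 and 9.34 in Meis1 deleted cells against 8.44, 8.62, 8.82 and 8.56 in Hoxa9 and Meis1 cells, and did not pass (0.46 ± 0.31). Meis1 deleted replicate 1 lay below all the other arrays there. The related Laptm4a showed a like split, with 10.52, 11.16, 11.12 and 11.06 in Meis1 deleted cells and 10.73, 10.67, 10.68 and 10.75 in Hoxa9 and Meis1 cells. With all arrays Laptm4a did not pass (0.25 ± 0.13, adjusted p = 0.160), and without Meis1 deleted replicate 1 it was called higher, at 0.40 (adjusted p = 1.21e-04).

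**Figure D3:**
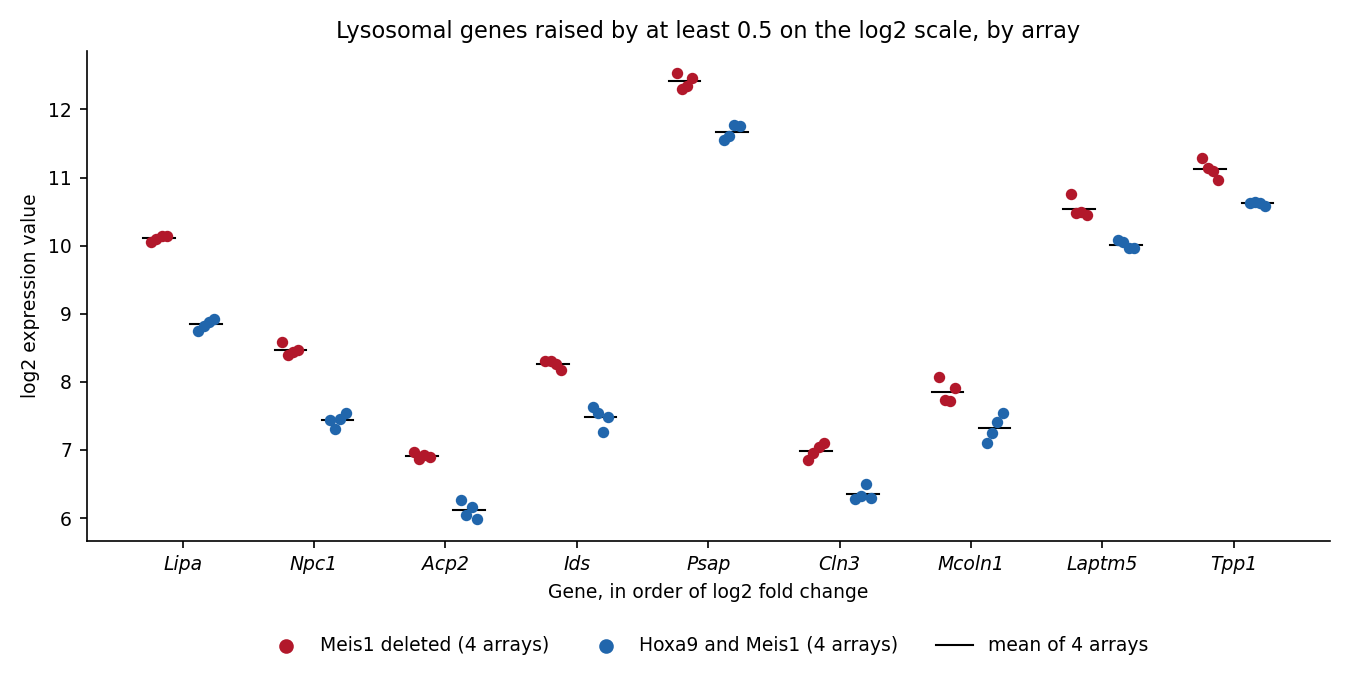
Log2 level (y axis) in every array of the 9 genes that rose by at least 0.5, with the 4 Meis1 deleted arrays left of the 4 Hoxa9 and Meis1 arrays for each gene and a bar at each group's mean. In each gene shown the groups do not overlap; levels of different genes come from different probes and are not to be set against each other.

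Meis1 deleted replicate 1 also stood apart in RNA quality. Its 3′ minus 5′ log2 difference of the Gapdh control was 0.725, against -0.0721 to 0.0352 in the other Meis1 deleted arrays and -0.0474 to -0.0083 in Hoxa9 and Meis1 arrays. The groups did not pass an exact two-sided permutation test on this measure, with 70 possible assignments (difference 0.189, p = 0.486), nor on the same measure of actin (p = 0.543). On the actin measure too Meis1 deleted replicate 1 stood highest, at 0.6685. The other Meis1 deleted arrays read 0.3186 to 0.3845 there, and Hoxa9 and Meis1 arrays 0.3191 to 0.374. As 1 array sets most of the difference in every assignment, the test cannot judge that array. No balance of RNA quality is read from it. Without that array 25 of the 34 genes rose, with a median of 0.30, where 2223 of all 11836 genes tested rose.

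Among the membrane glycoproteins Lamp1 and Lamp2, the most abundant proteins of the lysosomal wall, rose by small amounts. Lamp1 averaged 12.18 ± 0.07 in Meis1 deleted cells and 11.86 ± 0.05 in Hoxa9 and Meis1 cells (SD, n = 4 each), a rise of 0.33 ± 0.05 (adjusted p = 8.50e-04). Lamp2 rose by 0.34 ± 0.05, and its other 2 probe sets by 0.29 and 0.35. Scarb2, the carrier that brings glucocerebrosidase to the lysosome, gave a divided reading. The probe set that stood for it averaged 9.51 ± 0.13 in Meis1 deleted cells and 9.48 ± 0.07 in Hoxa9 and Meis1 cells and did not pass (0.03 ± 0.07, adjusted p = 0.791). A further Scarb2 probe set read 9.63, 9.58, 9.62 and 9.70 in Meis1 deleted cells, above 9.25, 9.17, 9.28 and 9.26 in Hoxa9 and Meis1 cells, and rose by 0.39 ± 0.05. With the mean of its probe sets Scarb2 was called higher (0.21, adjusted p = 0.00851).

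Lipid and sphingolipid breakdown, with its activator proteins, was the broadest group: of 12 genes 9 rose and 1 fell, with a median of 0.24. Lipa, the acid lipase that frees cholesterol from its esters, had levels of 10.05, 10.10, 10.14 and 10.15 in Meis1 deleted cells, against 8.75, 8.81, 8.88 and 8.93 in Hoxa9 and Meis1 cells. Its arrays varied little within groups, and it rose by 1.26 ± 0.05, or 2.40-fold (adjusted p = 1.35e-07), with 1.51 ± 0.18 and 1.71 ± 0.09 at its other probe sets. Npc2, the soluble protein that hands cholesterol to Npc1, rose by only 0.15 ± 0.04 (adjusted p = 0.0223), from probes that read 12.16 ± 0.04 in Meis1 deleted cells and 12.01 ± 0.04 in Hoxa9 and Meis1 cells. One further Npc2 probe set gave 0.17 ± 0.04. Another Npc2 probe set read 8.38, 7.97, 7.91 and 7.80 in Meis1 deleted cells and 7.13, 7.10, 7.18 and 7.16 in Hoxa9 and Meis1 cells, a rise of 0.87 ± 0.11. With the mean of its probe sets Npc2 rose by 0.40, so the size of its rise depended on the probes.

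Psap, the precursor of the saposins that present sphingolipids to their enzymes, read 12.53, 12.30, 12.35 and 12.46 in Meis1 deleted cells, against 11.56, 11.61, 11.77 and 11.76 in Hoxa9 and Meis1 cells. It rose by 0.74 ± 0.07 (adjusted p = 4.55e-05), and its other probe set by 0.94 ± 0.10. Gla, the alpha-galactosidase lost in Fabry disease, rose by 0.29 ± 0.05 from a probe set that read 9.93 ± 0.05 in Meis1 deleted cells and 9.64 ± 0.03 in Hoxa9 and Meis1 cells. Its other probe set read 6.90, 7.16, 7.19 and 6.89 in Meis1 deleted cells and 6.12, 6.09, 5.80 and 5.82 in Hoxa9 and Meis1 cells, a rise of 1.08 ± 0.10, and the mean of the 2 probe sets gave 0.68. Hexa, a subunit of beta-hexosaminidase, rose by 0.34 ± 0.04 and Asah1, the acid ceramidase, by 0.29 ± 0.04, each from a single kept probe set. Plbd2, a phospholipase B-like protein, rose by 0.28 ± 0.06 (adjusted p = 0.00816), or by 0.14 with an offset of 64, while its other probe set did not pass (0.10 ± 0.06).

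The calls of the smallest rises of the lipid group lay near the threshold, and each was lost when any 1 of several arrays was left out. Glb1, the acid beta-galactosidase, rose by 0.19 ± 0.06 (adjusted p = 0.0318). The adjusted p was 0.0614 without Meis1 deleted replicate 2 and 0.0644, 0.0775 and 0.0860 without Hoxa9 and Meis1 replicates 2, 3 and 4. A probe set that Glb1 shares with Tmppe, which entered no comparison, averaged lower in Meis1 deleted cells. Ppt1, which removes palmitate from proteins, rose by 0.17 ± 0.05 (adjusted p = 0.0220), and its other kept probe set rose by 0.41 ± 0.09. Its adjusted p was 0.0513 without Meis1 deleted replicate 2 and 0.0595 and 0.0612 without Hoxa9 and Meis1 replicates 1 and 3. The Npc2 call was lost as well, with adjusted p of 0.0562, 0.0563 and 0.0563 without Meis1 deleted replicates 2, 3 and 4, and of 0.0610 and 0.0622 without Hoxa9 and Meis1 replicates 2 and 4.

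Smpd1, the acid sphingomyelinase, was the only gene of the 34 called lower. It read 7.93, 7.86, 7.97 and 7.78 in Meis1 deleted cells and 8.20, 8.11, 8.003 and 7.99 in Hoxa9 and Meis1 cells, so the groups lay close without overlapping. Its fold change was -0.19 ± 0.06 (adjusted p = 0.0425), and its other probe set gave 0.00 ± 0.08. The call did not hold without Meis1 deleted replicates 2 or 4 (adjusted p = 0.0954 and 0.106), without Hoxa9 and Meis1 replicates 1, 2 or 3 (0.106, 0.0993 and 0.0511), or with the mean of its probe sets (-0.10, adjusted p = 0.170). Arsa, the sulfatase of myelin sulfatide (-0.05 ± 0.06), and Gm2a, the activator that presents gangliosides to beta-hexosaminidase (0.08 ± 0.07), did not pass.

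Glycosaminoglycan breakdown had 6 measured genes, of which 3 rose and 0 fell, with a median of 0.23. Ids, the iduronate sulfatase that acts on heparan and dermatan sulfate, read 8.30, 8.30, 8.26 and 8.18 in Meis1 deleted cells and 7.63, 7.54, 7.26 and 7.48 in Hoxa9 and Meis1 cells. It rose by 0.78 ± 0.08 (adjusted p = 4.94e-05). Its other kept probe set did not pass and lay below most Hoxa9 and Meis1 arrays (-0.17 ± 0.08), 4 more Ids probe sets were under the filter, and the mean of the 2 kept ones gave 0.31. Gusb, the beta-glucuronidase, rose by 0.34 ± 0.05, with levels of 11.28 ± 0.06 in Meis1 deleted cells and 10.94 ± 0.05 in Hoxa9 and Meis1 cells. A further Gusb probe set did not pass (0.11 ± 0.17), with Meis1 deleted replicate 1 at 7.72 and the other Meis1 deleted arrays at 8.61, 8.54 and 8.44, and the call was lost with the mean of the probe sets (0.22, adjusted p = 0.0525).

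Naglu, the glucosaminidase of heparan sulfate, rose by 0.33 ± 0.07 (adjusted p = 0.00607). The sulfatases Galns (0.13 ± 0.06), Sgsh (0.01 ± 0.04) and Arsb (-0.04 ± 0.06) did not pass. Arsb averaged 4.52 ± 0.08 in Meis1 deleted cells and 4.56 ± 0.09 in Hoxa9 and Meis1 cells, just above the filter level of 4.29, where little change can be seen.

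Of the 4 measured genes of glycoprotein and glycogen breakdown 3 rose and 0 fell, with a median of 0.31. Man2b1, the lysosomal alpha-mannosidase, rose by 0.48 ± 0.07 (adjusted p = 4.59e-04), with 10.49 ± 0.09 in Meis1 deleted cells and 10.02 ± 0.11 in Hoxa9 and Meis1 cells. Manba, the beta-mannosidase, rose by 0.33 ± 0.05, and Fuca1, the fucosidase, by 0.28 ± 0.05. A second Fuca1 probe set did not pass (-0.14 ± 0.10), and with the mean of the 2 Fuca1 was not called (0.07, adjusted p = 0.277). Gaa, the acid glucosidase that digests glycogen, did not pass (0.12 ± 0.08, adjusted p = 0.271).

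The protease, the phosphatases and progranulin completed the set, with 3 of 4 genes higher, 0 lower and a median of 0.41. Acp2, the lysosomal acid phosphatase, read 6.98, 6.87, 6.93 and 6.90 in Meis1 deleted cells, against 6.26, 6.04, 6.16 and 5.99 in Hoxa9 and Meis1 cells. It rose by 0.80 ± 0.06 (adjusted p = 1.18e-05), by 1.15 ± 0.05 at its other probe set, and by 0.47 with an offset of 64, which damps changes of dim probes. Tpp1, a protease that trims short peptides from protein ends, read 11.29, 11.14, 11.10 and 10.96 in Meis1 deleted cells and 10.63, 10.64, 10.63 and 10.59 in Hoxa9 and Meis1 cells. It rose by 0.50 ± 0.07 (adjusted p = 3.37e-04), and its other probe set by 0.28 ± 0.08.

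Grn, which encodes progranulin, a secreted protein that is cut into granulins in the lysosome, rose by 0.31 ± 0.06 at a probe set whose name marks probes that may match other transcripts. Its other probe set read 11.59, 11.49, 11.46 and 11.40 in Meis1 deleted cells, against 10.75, 10.74, 10.68 and 10.74 in Hoxa9 and Meis1 cells, a rise of 0.76 ± 0.05, and the mean of both gave 0.53. Acp5, the tartrate-resistant phosphatase of osteoclasts and macrophages, did not pass (0.06 ± 0.06, adjusted p = 0.435), at 5.35 ± 0.02 in Meis1 deleted cells and 5.29 ± 0.11 in Hoxa9 and Meis1 cells.

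Probe by probe, the 34 genes had 64 probe sets, of which 58 passed the filter. Of these 39 rose, 1 fell and 18 did not pass, where 15.9% of all kept probe sets with a single symbol rose. In 8 of the 19 genes with several kept probe sets the calls differed (Cln3, Fuca1, Gusb, Ids, Laptm5, Plbd2, Scarb2 and Smpd1), and in 0 genes did called probe sets go opposite ways. All kept probe sets rose in 18 genes. Probe sets of a gene can read different transcripts or ends, and their position in the transcript was not used here.

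**Figure D4:**
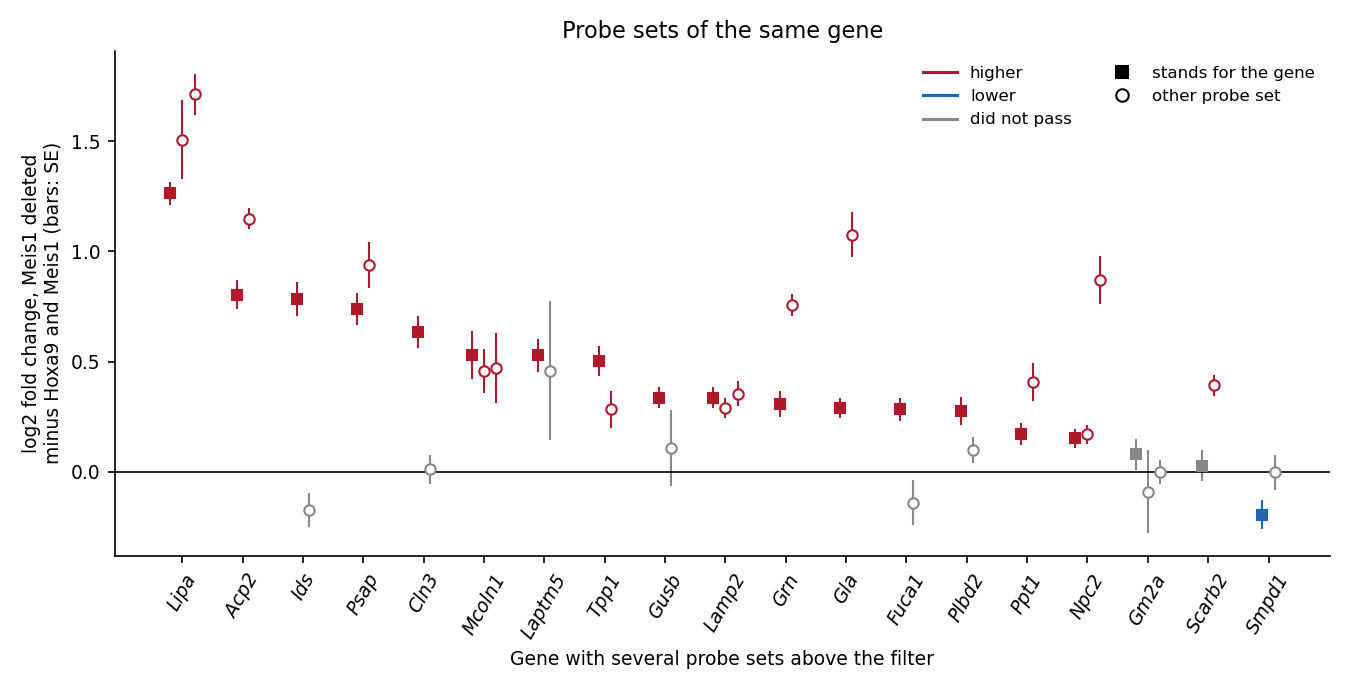
Log2 fold change (Meis1 deleted minus Hoxa9 and Meis1, bars for the SE) of each kept probe set of the 19 genes with several; squares stand for the gene, open circles are its other probe sets, and colour gives the call. Lipa, Acp2 and Psap show rises of at least 0.74 at each probe set, while Ids, Cln3 and Fuca1 each have a kept probe set near or below 0.

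Other lysosomal genes were counted from lists that exclude the genes above. Among other lysosomal membrane proteins 15 of 23 rose and 2 fell, with a median of 0.31. The proton-coupled peptide transporter Slc15a3 (3.02 ± 0.11), the metal transporter Slc11a1 (2.13 ± 0.06) and the macrophage glycoprotein Cd68 (0.91 ± 0.05) had the smallest adjusted p. The 2 that fell were Tpcn1 (-0.53 ± 0.05), a cation channel, and Abcb9 (-0.22 ± 0.06), a peptide transporter, and 1 of them was called without Meis1 deleted replicates 2 or 3 or Hoxa9 and Meis1 replicates 3 or 4. Among other lysosomal hydrolases 5 of 17 rose and 0 fell, with a median of 0.06. Those with the smallest adjusted p were Hgsnat (0.95 ± 0.05), which acetylates heparan sulfate for its breakdown, the phospholipase Pla2g15 (1.11 ± 0.09) and the hyaluronidase Hyal1 (0.95 ± 0.10). Cathepsins and legumain had 10 of 13 genes higher and 0 lower, with a median of 1.24. That median was 0.84 with an offset of 64 and 0.88 without the filter on low values. Lgmn (5.29 ± 0.09), Ctsb (1.96 ± 0.04) and Ctsl (1.37 ± 0.04) had the smallest adjusted p. Differences between these lists were not tested.

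Of the 11 measured genes of mannose 6-phosphate sorting and sulfatase activation 5 rose, 0 fell and 6 did not pass (median 0.14). The median was 0.08 over single probe sets, and 1 was called lower there, with probe sets averaged per gene, with array weights or without Meis1 deleted replicate 1. The 3 with the smallest adjusted p were Ap1b1, a subunit of a clathrin adaptor (0.76 ± 0.06), Sumf1, which activates sulfatases (1.16 ± 0.15), and Nagpa, which uncovers the mannose 6-phosphate tag (0.45 ± 0.09). Of 17 regulators of lysosomal biogenesis 9 rose, 1 fell and 7 did not pass (median 0.19). Fnip2, the partner of folliculin, rose by 2.15 ± 0.05, the GTPase Rragd by 1.33 ± 0.06 and Mitf by 0.79 ± 0.06. The other factors of the Mitf family did not pass, with Tfeb at 0.11 ± 0.05 (adjusted p = 0.124), Tfe3 at 0.17 ± 0.08 (adjusted p = 0.140) and Tfec at 0.08 ± 0.04 (adjusted p = 0.185). Lamtor4, a scaffold subunit at the lysosomal surface, was the 1 regulator called lower (-0.18 ± 0.06), a call lost when any 1 array other than Hoxa9 and Meis1 replicate 1 was left out.

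**Figure D5:**
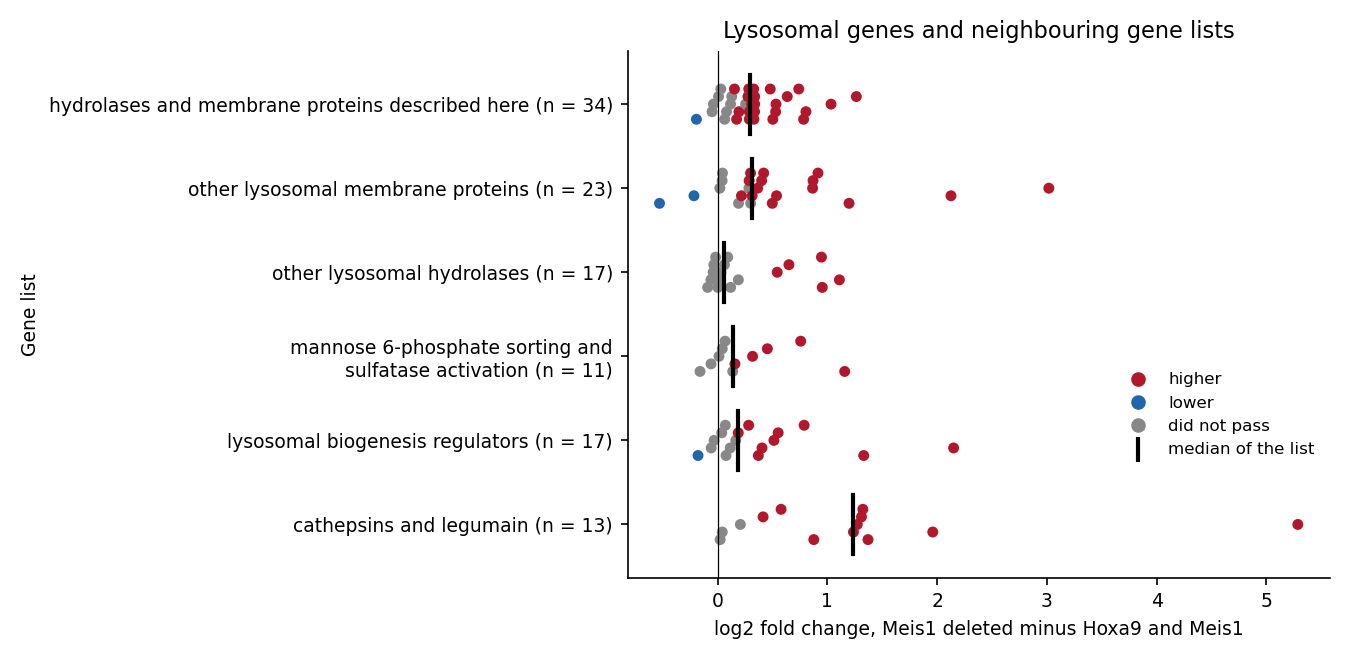
Log2 fold change (Meis1 deleted minus Hoxa9 and Meis1, x axis) of every tested gene of each list, 1 point per gene, coloured by call, with a bar at the median of the list. The 34 genes in the top row centre on 0.30 and reach 1.26, other lysosomal hydrolases centre on 0.06, and cathepsins and legumain centre on 1.24 with Lgmn at 5.29.

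Some markers of cell types also differed between the groups, in directions that varied by list. Of the 8 markers of the labelled myeloid type 4 rose (Mpo 0.59, Csf2rb 0.40, Spi1 0.28 and Ptprc 0.21), Elane (-0.50) and Cebpa (-0.36) fell and 2 did not pass. Their summed linear level was 13416 to 13819 in Meis1 deleted arrays and 12342 to 12469 in Hoxa9 and Meis1 arrays. All 10 tested macrophage markers rose, and the sum of that list was 11220 to 11502 in Meis1 deleted arrays and 1589 to 1723 in Hoxa9 and Meis1 arrays. The 7 tested neutrophil markers rose too, with sums of 22926 to 23384 in Meis1 deleted arrays and 12810 to 13461 in Hoxa9 and Meis1 arrays. Of 4 tested osteoclast markers 3 rose, with sums of 586 to 627 in Meis1 deleted arrays and 122 to 130 in Hoxa9 and Meis1 arrays, and Calcr and Ocstamp were under the filter. The 3 were Atp6v0d2, a proton pump subunit with the largest fold change, Ctsk, which is also counted among the cathepsins above, and Mmp9. Oscar did not pass. Megakaryocyte and erythroid markers summed to 1331 to 1464 in Meis1 deleted arrays and 234 to 240 in Hoxa9 and Meis1 arrays, with only Pf4 called higher (3.84) of 4 tested. Sums of lymphoid markers were 1026 to 1199 in Meis1 deleted arrays and 2399 to 2662 in Hoxa9 and Meis1 arrays, with only Thy1 called lower (-1.30) of 4 tested. The other 3 did not pass, with Cd3e at 0.12, Ms4a1 at 0.11 and Cd79a at -0.21. Mast cell and basophil markers summed to 395 to 545 in Meis1 deleted arrays and 513 to 540 in Hoxa9 and Meis1 arrays. The sum of 545 was that of Meis1 deleted replicate 1, and the other Meis1 deleted arrays lay between 395 and 426. Of 5 tested Mcpt8 was called lower (-0.74) and Ms4a2 higher (0.20). For stromal cells 4 of 5 markers were under the filter. The part of these shifts in the lysosomal results was not tested.

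The spiked bioB control told apart 2 sets of arrays that the labels do not name. One set held Meis1 deleted replicates 1, 2 and 3 and Hoxa9 and Meis1 replicates 1 and 2, and the other held the rest, with 1 Meis1 deleted array. The median log2 fold change of the 34 genes was 0.30 within the larger set and 0.32 within the smaller one. In the larger set 20 of the 34 genes rose, where 1528 of all 11836 genes tested rose. The smaller set has no spread of its own for Meis1 deleted cells, whose lone array was assumed to vary like the others. Counts within it therefore say little about stability. With the set as a block 24 of the 34 genes rose, where 2149 of all genes rose.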

How the data were processed

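RNA of 8 samples (4 Meis1 deleted, 4 Hoxa9 and Meis1), 100 ng per array, was hybridised to 1-colour Affymetrix arrays, per the labels' protocols. The deposited values are log2 levels per probe set, already normalized between arrays by the authors, as the values show (array medians 4.69 to 4.74). MAS5 appears in the submitters' processing notes, for an unstated step and version, and for the summarisation and the build the sources used here give nothing. No detection calls were used, and the number of arrays limits the precision.

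Of 45037 probe sets other than spiked controls, 28898 had 1 symbol in the platform annotation, 551 had several and 15588 had none. The lowest 40% by mean were left out (log2 4.29), which kept 27022, with no offset added. limma 3.58.1 in R 4.3.3 (lmFit, eBayes) was fitted over all of them. Each gene was represented by its probe set of highest mean, and p-values were adjusted after Benjamini and Hochberg over 11836 genes (threshold 0.05). Probe sets tested singly were adjusted over all kept probe sets. The procedure was tested on simulated data. Errors of fold changes are standard errors.

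Members and lists were chosen with earlier results of these data known, so no test over a list is given. Per-array values are printed for members past the threshold with a log2 fold change of at least 0.5, and for others where their probe sets or arrays disagree, a choice made after their values were seen. Of each further list, up to 3 genes with the smallest adjusted p are named, with those called lower and the Mitf family added after their values were seen. Promoter windows came from RefSeq (GRCm38.p6). Alternatives covered scaling, offset, filter, probe sets, variance model, array weights, blocks and arrays left out. Replicate numbers of the titles did not pair the samples.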

Additional observations from a re-analysis of the deposited data

Results flagged for a closer look

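In 72 groups of 4 values examined (each gene in each group, and 2 controls of RNA quality), 7 single values lay far from the other 3 of their group, where chance gives about 1 in 20 groups. Of these, 4 came from Meis1 deleted replicate 1. It read 10.52 for Laptm4a, against 11.06 to 11.16 in the other Meis1 deleted arrays, and 10.76 for Laptm5, against 10.44 to 10.49. It read 11.13 for Gm2a, against 10.83 to 10.87. Its Gapdh 3′ minus 5′ difference was 0.7247, against -0.0721 to 0.0352. The part of RNA quality in these readings was not tested.

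The other 3 were small departures. Acp5 read 5.33 in Meis1 deleted replicate 3, against 5.36 to 5.365 in the other Meis1 deleted arrays. Arsa read 8.783 in Hoxa9 and Meis1 replicate 4, against 8.654 to 8.675, and Sgsh read 6.567 in Hoxa9 and Meis1 replicate 2, against 6.628 to 6.64.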

How the results depend on the processing

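Each gene's call was recomputed under up to 21 alternatives; 21 of the 34 genes kept their side of the threshold in all of them, and 0 called genes changed direction. The genes' median lay between 0.2733 (offset of 64) and 0.3214 (smaller bioB set). The count of genes called lower, 1 with all arrays, was 0 when kept probe sets were averaged per gene and 0 within the smaller bioB set, and ran from 0 to 1 with single arrays left out. With each probe set tested alone, 39 probe sets of these genes rose and 3155 of all probe sets fell, more features being tested. Within the larger bioB set 1528 of all genes rose and 1271 fell. Within the smaller set 940 of all genes rose, 764 fell and 15 of these genes rose, fewer arrays being used. There, with a lone Meis1 deleted array, the calls of Fuca1, Glb1, Lamp2, Mcoln1, Naglu, Npc2, Plbd2, Ppt1, Smpd1 and Tpp1 were lost, and in the larger set those of Glb1, Npc2, Plbd2 and Ppt1. With single arrays left out, 21 to 25 of these genes rose, the median ran from 0.2848 to 0.3182, and over all genes 1759 to 2223 rose and 1650 to 2450 fell. Quantile normalization ended the Npc2 call (adjusted p = 0.0557, limma), and array weights added Laptm4a (0.39). With the bioB set as a block but without Meis1 deleted replicate 1, Laptm4a and Scarb2 were added and 26 rose. Of all genes 2563 rose there. Of the further lists, the hydrolases' median was 0.011 with array weights. The causes were not tested. Deviations of arrays with the same title number correlated at 0.0252, 0.224, -0.131 and 0.289, so the numbers were not taken as pairs. With the replicate block 22 of these genes rose, with a median of 0.2987, and 2020 of all genes rose and 1886 fell. Npc2 (adjusted p = 0.0636) and Ppt1 (adjusted p = 0.0509) were the calls lost. Dim probe sets such as that of Arsb limit what can be seen.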

Other observations

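One further probe set carries 2 symbols, Tmppe and Glb1, and entered no comparison. It read 7.73, 7.78, 7.73 and 7.64 in Meis1 deleted cells and 7.98, 7.85, 7.83 and 7.78 in Hoxa9 and Meis1 cells. It averaged 7.72 ± 0.06 in Meis1 deleted cells and 7.86 ± 0.09 in Hoxa9 and Meis1 cells (SD, n = 4 each), the other way from the Glb1 call. The groups overlapped at 7.78.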
